A study of Homo sapiens with 48 samples.

Results

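8 genes whose transcripts were lower after BV6 in MDA-MB-231 breast cancer cells were followed: NREP, PGCKA1, TRERF1, NDP, SOX9, SNTB1, CTNNBIP1 and PLPP3. They are 8 of the 20045 genes with a probe of 1 symbol, and 12 of 30112 such probes carry their names. BV6 is a Smac mimetic with 2 binding units that targets inhibitor of apoptosis proteins, and in doing so it switches on NF-kB signalling and sensitizes cells to TNF. The genes were selected on their BV6 change, as falls that stood out in the time course or with one of the siRNAs in MDA-MB-231 cells. Their BV6 changes in that cell line are therefore a description, with no test, and the share of all genes past the threshold is printed beside each count for scale only.

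Each of 48 RNA samples was read on 1 Illumina HumanHT-12 bead array. Untransfected MDA-MB-231 cells, a mesenchymal-like triple-negative breast cancer line, received 50 nM BV6 and were collected after 3, 6, 9, 12 and 15 h, or were left untreated and collected at 0, 9 and 15 h, with 2 arrays in each of these groups. In the siRNA experiment, cells of the same line carried siRNA against TNFR1 (siTNFR1), RELA (siRELA) or IRF1 (siIRF1), or a control siRNA (siCtrl), and each was given 50 nM BV6 for 9 h or left untreated, with 3 arrays per group. EVSA-T cells, another breast cancer line, carried siTNFR1 or siCtrl and were given 5 nM BV6 for 9 h or left untreated, with 2 arrays per group. The protocol states a transfection of 36 h at 5 nM for the control and TNFR1 siRNAs, and neither the number nor the sequences of the siRNAs are stated in the sources used. The study set out to separate an early wave of BV6 responses through NF-kB and AP-1 from a second wave through TNF and its receptor TNFR1, as the series title has it.

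In Wnt signalling, to which 2 of the genes belong, secreted ligands bind frizzled receptors and stabilize beta-catenin, which then works with TCF factors in the nucleus. NDP encodes norrin, a secreted ligand of the receptor frizzled-4 that signals through this route, and CTNNBIP1 encodes ICAT, a small protein that keeps beta-catenin from TCF factors. SOX9 is an HMG-box transcription factor with roles in cartilage, stem cells and breast epithelium, and TRERF1 is a transcriptional regulator with zinc fingers. SNTB1 encodes beta-1-syntrophin, an adaptor of the dystrophin complex under the cell membrane, and PLPP3 encodes a membrane enzyme that removes the phosphate of lysophosphatidic acid and related lipids. NREP, also known as P311, is a small intracellular protein linked to TGF-beta production, and PGCKA1, formerly C4orf19, takes its name from PDCD10 and the GCKIII kinases.

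The arrays showed the 2 cell lines and the siRNAs as labelled. The mesenchymal markers VIM, AXL, CAV1, CAV2, MSN and CD44 were detected on all 40 MDA-MB-231 arrays and the luminal genes CDH1, FOXA1 and ESR1 on none, while CDH1, FOXA1 and 6 other luminal markers were detected on all 8 EVSA-T arrays, where AXL and CAV1 were detected on none. The luminal genes EPCAM, KRT8 and KRT19 were detected on all 40 MDA-MB-231 arrays too, and VIM on all 8 of EVSA-T. Of the 7 leukocyte markers with a probe, the pan-leukocyte gene PTPRC was detected on no array of either line, while CD68 was detected on all 40 MDA-MB-231 arrays. TNFRSF1A, the gene of TNFR1, was detected on 0 of the 6 siTNFR1 arrays of MDA-MB-231 and 0 of the 4 of EVSA-T, and RELA on 0 of 6 siRELA arrays. IRF1 ran from 6.06 to 7.31 on the log2 scale with siIRF1, against 9.39 to 10.8 on the other 18 arrays. BV6 raised the NF-kB response genes TRAF1, NFKB2 and NFKBIA in siCtrl MDA-MB-231 cells by 3.36, 2.62 and 2.22 log2 (limma adjusted p 2.28e-12 to 1.77e-08). The fits held 9944 genes in the time course, 9586 in the siRNA experiment and 8422 in EVSA-T. Values are normalized log2 signals, errors after ± are standard errors from limma, and a call is an adjusted p under 0.05 over all genes of a comparison. A probe counted as detected on an array when its deposited detection p was under 0.01. That p does not follow the signal strictly, so a dimmer array can be detected and a brighter one not. In RNA from whole cultures, less transcript per cell and fewer cells with the transcript cannot be told apart.

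Promoter sequence was searched for 5 of the 8 genes: CTNNBIP1, NREP, PGCKA1, PLPP3 and TRERF1. The search covered 13 windows of 300 bases, from 250 bases before to 50 after a start site, in RefSeq on GRCh38.p14. No window of NDP, SOX9 or SNTB1 was searched, so the promoter results do not cover these genes. The 3 windows below belong to the genes that moved most in the siRNA experiment and in EVSA-T, and for NREP the one of its 6 windows with an AP-1 form is shown. All 3 lie on the minus strand and are written 5′ to 3′ along the gene, in lower case with every motif match in capitals.
CTNNBIP1 chr1:9910220-9910519: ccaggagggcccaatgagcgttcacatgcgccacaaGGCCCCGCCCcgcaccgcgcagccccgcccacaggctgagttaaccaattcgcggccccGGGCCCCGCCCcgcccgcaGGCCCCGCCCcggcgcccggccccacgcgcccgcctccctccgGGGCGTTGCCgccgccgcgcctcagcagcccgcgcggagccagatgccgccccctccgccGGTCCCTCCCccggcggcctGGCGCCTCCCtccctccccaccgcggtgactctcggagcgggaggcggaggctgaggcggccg
PLPP3 chr1:56579514-56579813: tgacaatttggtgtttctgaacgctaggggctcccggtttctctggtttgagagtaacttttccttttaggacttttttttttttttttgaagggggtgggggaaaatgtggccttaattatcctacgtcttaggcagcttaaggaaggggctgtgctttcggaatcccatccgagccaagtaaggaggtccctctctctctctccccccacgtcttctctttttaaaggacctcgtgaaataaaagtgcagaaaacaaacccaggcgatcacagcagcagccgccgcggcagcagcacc
NREP chr5:111976883-111977182: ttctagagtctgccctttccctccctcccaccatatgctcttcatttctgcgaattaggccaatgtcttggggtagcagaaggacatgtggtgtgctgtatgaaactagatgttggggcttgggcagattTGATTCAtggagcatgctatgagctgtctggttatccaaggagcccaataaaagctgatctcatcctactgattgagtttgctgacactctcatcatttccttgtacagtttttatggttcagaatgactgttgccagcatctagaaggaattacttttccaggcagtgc
Both strands were searched for a loose NF-kB form (3 G, any 5 bases and 2 C), for TGANTCA (AP-1), CTTTGAT (TCF/LEF) and CTTTGTT (SOX and TCF/LEF). The CTNNBIP1 window holds 7 matches to the NF-kB form, some of them overlapping, in a stretch rich in G and C. Of all 35116 promoter windows, 58.7% hold that form, so it is common at this length, and 4 of the 13 member windows hold it (1 of CTNNBIP1, 1 of NREP and 2 of TRERF1). The NREP window holds TGATTCA once, at position -120 from the start site, and 7.71% of all windows hold the form TGANTCA. None of these letters are in the PLPP3 window. None of the 13 windows searched holds CTTTGAT or CTTTGTT, which 2.62% and 5.2% of all windows hold, and PGCKA1 had no match in either of its windows. These are matches of letters, and the data hold no measure of binding.

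The genes differed in when they were lowered. NDP and SOX9 were lowest at 3 h and close to their untreated signal by 15 h. NREP, PGCKA1, SNTB1 and CTNNBIP1 were lowest at 15 h, TRERF1 was below every untreated array throughout, and PLPP3 had no call. Of the 40 values (8 genes at 5 times), 38 were negative and 10 were called lower. The called genes numbered 2 at 3 h, 0 at 6 h, 1 at 9 h, 3 at 12 h and 4 at 15 h (limma). At 6 h, 5 of the 8 had an unadjusted p under 0.05, as had 765 of all 9944 genes. Of all genes, 0.111% were called lower at 3 h, 0.0603% at 6 h, 0.261% at 9 h, 1.62% at 12 h and 3.09% at 15 h. The 5 comparisons share 6 untreated arrays. All of these lay on slide 3, as did both 3 h arrays, while 1 of the 2 arrays of each later time lay on slide 4. With slide as a block 13 of the 40 values were called lower, and on slide 3 alone, with 1 array at each later time, 3 were. A block for the replicate number, which pairs the samples at 6 to 15 h, gave 15.

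**Figure D1:**
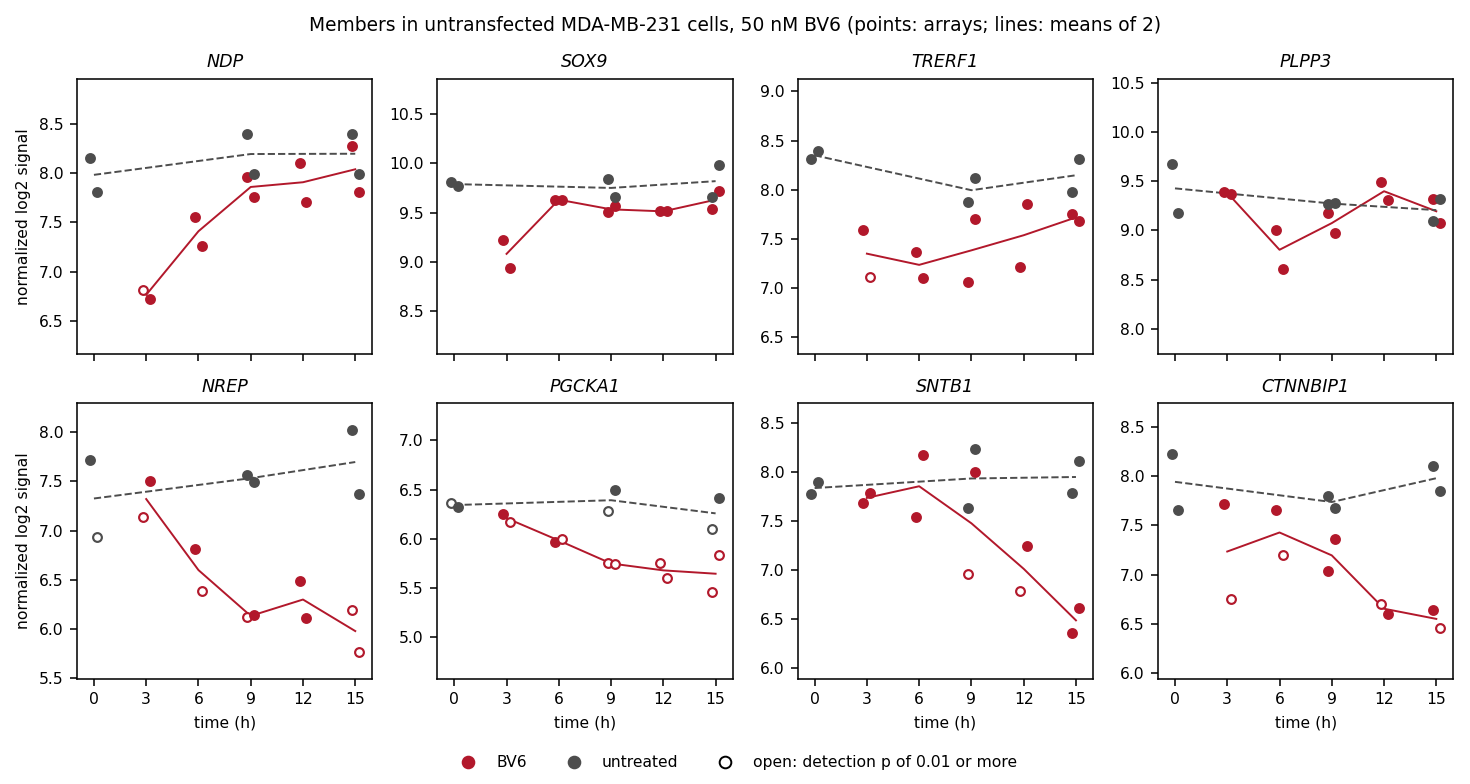
Normalized log2 signal (vertical axes, each spanning 2.8 units) of the 8 genes against hours in untransfected MDA-MB-231 cells, with BV6 in red and untreated cells in grey; each point is an array and lines join means of 2. NDP and SOX9 dip at 3 h and return, while NREP, PGCKA1, SNTB1 and CTNNBIP1 end below every untreated array at 15 h.

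NDP, the norrin gene, had the largest early fall. Its signal was 6.81 and 6.72 at 3 h of BV6 and 7.56 and 7.26 at 6 h, against a range of 7.81 to 8.40 with a median of 8.07 on the 6 untreated arrays. Both early times lay below every untreated array. By 9 h the arrays read 7.96 and 7.76, and by 15 h 8.27 and 7.81, in the untreated range or at its lower edge. The change was -1.36 ± 0.18 log2 at 3 h, -0.72 ± 0.18 at 6 h, not called except with the replicate block (adjusted p 0.00806), and -0.09 ± 0.18 at 15 h. Of the 9944 genes, NDP stood lowest at 3 h.

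SOX9, the HMG-box factor, moved by less. It read 9.22 and 8.94 at 3 h of BV6, against 9.65 to 9.98 with a median of 9.79 in untreated cells, a change of -0.71 ± 0.13. From 6 h on its arrays lay between 9.50 and 9.72, and its changes between -0.27 and -0.16. The 3 h arrays thus stood below all others of the time course, treated or not.

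TRERF1, the zinc-finger regulator, was lower at all 5 times with no overlap. Its signal was 7.59 and 7.11 at 3 h and 7.37 and 7.10 at 6 h of BV6, against 7.87 to 8.39 with a median of 8.21 in untreated cells. At 15 h both arrays read 7.75 and 7.68, nearer to the untreated ones. The change ran from -0.93 ± 0.20 at 6 h to -0.45 ± 0.20 at 15 h, and no time was called in the fit by group alone (adjusted p 0.0672 at 6 h). The 6 h value was called with the replicate block (0.0339), which pairs the samples at that time, with the slide block (0.0378) and on the authors' matrix (0.0358), the 9 h value with the slide block (0.0493), and the 3 h value without BV6 replicate 1 of that time (0.0388).

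CTNNBIP1, the gene of the beta-catenin inhibitor ICAT, was lowest late. It read 6.70 and 6.60 at 12 h and 6.64 and 6.45 at 15 h of BV6, against 7.66 to 8.23 with a median of 7.83 in untreated cells. The groups did not overlap at 9, 12 and 15 h. At 3 and 6 h its replicates lay far apart, at 7.72 and 6.75 and at 7.66 and 7.20. The change was -1.23 ± 0.23 at 12 h and -1.34 ± 0.23 at 15 h.

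SNTB1, the syntrophin gene, followed latest. At 3 and 6 h its arrays read 7.68, 7.79, 7.54 and 8.17, in or next to the untreated range of 7.64 to 8.23 (median 7.84). At 9 h the replicates parted, with 6.96 and 7.99, at 12 h they read 6.79 and 7.24, and at 15 h 6.36 and 6.61. Both later times lay below every untreated array. The change was -0.89 ± 0.25 at 12 h, not called in the fit by group alone (adjusted p 0.0624) but called with the replicate block (0.00408), the slide block (0.00199) and on the authors' matrix (0.047), and -1.42 ± 0.25 at 15 h.

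NREP, the TGF-beta-linked protein gene, was low from 6 h on. It read 6.81 and 6.39 at 6 h, 6.12 and 6.14 at 9 h, 6.49 and 6.11 at 12 h and 6.19 and 5.77 at 15 h of BV6, against 6.94 to 8.02 with a median of 7.53 in untreated cells. From 6 h on no treated array reached the untreated range. The change was -0.92 ± 0.22 at 6 h, where it was not called (adjusted p 0.1) except with the replicate block (0.0253) and without untreated 0 h replicate 2 (0.0371), -1.39 ± 0.22 at 9 h and -1.22 ± 0.22 at 12 h. At 15 h neither BV6 array was detected, so the fall is given by mean signals, without an error, as at least 2.91-fold. Of the 6 untreated arrays, 5 were detected.

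PGCKA1 was dim throughout, detected on 3 of 6 untreated arrays. Its signal was 5.75 on both arrays at 9 h, 5.75 and 5.61 at 12 h and 5.46 and 5.83 at 15 h of BV6, against 6.10 to 6.50 with a median of 6.34 in untreated cells. The groups did not overlap from 6 h on. No array was detected from 9 h on. The falls are therefore given by mean signals, without an error, as at least 1.57-fold at 12 h and 1.61-fold at 15 h. At 9 h the mean signal was 1.50-fold lower, which was not called (limma adjusted p 0.0618) except with the replicate block (0.0362).

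PLPP3 hardly moved in the time course. It read 9.00 and 8.60 at 6 h of BV6, just below the untreated range of 9.10 to 9.68 (median 9.27), and it overlapped that range at 3, 9, 12 and 15 h. The change at 6 h was -0.50 ± 0.16, and those at the other times lay between -0.23 and 0.10.

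With 2 arrays a time, single arrays decided several of these calls. Without one of the 16 arrays, 7 to 12 of the 40 values were called lower. The NDP call at 3 h was lost without replicate 2 of that time, and that of SOX9 without 1 of 5 arrays, with a change between -0.71 and -0.56. NREP lost its call at 9 h without either BV6 array and at 12 h without replicate 2. PGCKA1 and CTNNBIP1 lost theirs at 12 h without either BV6 array, and PGCKA1 and SNTB1 theirs at 15 h without replicate 1. In these fits the lone array is assumed to vary like the other groups. Set against untreated cells of the same hour, or of 0 h for the earlier times, 5 of 32 values were called lower: NDP at 3 h, NREP at 9 h, and CTNNBIP1, NREP and SNTB1 at 15 h.

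Time in culture alone was tested on arrays that BV6 did not touch. None of the 8 genes was called between untreated 9 h and 0 h cells, where 0.0101% of all genes were called, or between untreated 15 h and 0 h cells, where 0% were (limma, adjusted p 0.999 or more for each member). At an unadjusted p under 0.05, 0 of the 8 genes and 290 of all genes passed between 15 h and 0 h. The largest of these 16 differences were 0.37 ± 0.27 for NREP at 15 h and -0.35 ± 0.25 for TRERF1 at 9 h.

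Other genes of the same pathways mostly stayed within their spread in the time course. Among Wnt ligands and receptors, 1 of 13 measured genes was called lower at 12 h and 1 at 15 h, in both cases LRP5, a co-receptor of frizzleds (-0.81 ± 0.16 and -0.72 ± 0.16 log2, adjusted p = 0.00722 and 0.0112, limma). None of the 6 measured secreted and membrane Wnt inhibitors and none of the 16 genes of the beta-catenin machinery were called at these times. Of 14 beta-catenin target genes, VEGFA and BIRC5 were called lower at 12 h (-0.76 ± 0.20 and -0.55 ± 0.14, limma adjusted p = 0.0455 and 0.0332), and BMP4, a bone morphogenetic protein, at 15 h (-1.36 ± 0.29, limma adjusted p = 0.0109). The median of that list at 15 h was -0.10, against -0.05 over all genes.

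Of the dystrophin complex, 1 of 5 measured genes was called at 12 h, the second beta-syntrophin SNTB2 (-0.73 ± 0.17 log2, limma adjusted p = 0.0263), and none at 15 h. PLPP4, which like PLPP3 acts on phosphatidic acid, was the 1 of 10 measured lipid phosphatase and LPA or S1P genes called at 15 h (-1.02 ± 0.20, limma adjusted p = 0.00598). From the TGF-beta list SMAD6, an inhibitory SMAD, was called lower at 15 h (-0.81 ± 0.15, limma adjusted p = 0.0047), and from the GCKIII list STRIP2 higher (0.65 ± 0.16, limma adjusted p = 0.0211). None of 5 SOX genes and none of 4 TRERF1 relatives and partners were called at 12 or 15 h. Luminal epithelial markers were lower too: of 8 measured, CLDN7 and SPDEF were called lower at 12 h (-0.89 ± 0.18 and -0.72 ± 0.19, limma adjusted p = 0.0115 and 0.0433), and SPDEF and ERBB3 at 15 h (-0.80 ± 0.19 and -0.51 ± 0.14, limma adjusted p = 0.0177 and 0.0368). Their mean signal was 8.13 to 8.41 log2 on the 6 untreated arrays and 8.04 to 8.17 at 3 h of BV6. It was below the untreated range from 6 h on, at 8.06 to 8.11 at 6 h, 7.84 to 8.02 at 9 h and 7.82 to 7.97 at 15 h. CDH1, FOXA1 and ESR1 were undetected with and without BV6. The part of the luminal markers in the results was not tested.

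The siRNAs themselves changed most of these genes before any BV6 was added. In untreated cells, siIRF1 lowered 5 of the 8 (CTNNBIP1, PGCKA1, PLPP3, TRERF1 and SNTB1), siRELA lowered PGCKA1 and raised NREP and SOX9, and siTNFR1 raised NREP. These 9 calls of 24 stand against 21.8% of all genes called with siIRF1, 21% with siRELA and 3.31% with siTNFR1, in either direction. The 3 comparisons share the siCtrl untreated arrays. PGCKA1 was chosen partly for its fall from those arrays, so its calls in this count are no independent support. With slide as a block there were 11 calls, on slide 1 alone 7 and on slide 2 alone 2.

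CTNNBIP1 had the largest of these differences. It read 6.43, 6.18 and 6.01 in untreated siIRF1 cells, against 8.43, 8.51 and 7.92 in untreated siCtrl cells. Every siIRF1 array lay more than 1 log2 unit below every siCtrl array. The difference was -2.08 ± 0.18 log2 (limma adjusted p = 8.17e-09), and with BV6 in both it was at least 4.56-fold lower, since none of the BV6 siIRF1 arrays was detected (5.80, 5.95 and 6.09, against 8.18, 7.96 and 8.27 in siCtrl; limma adjusted p = 2.53e-09). A second probe of CTNNBIP1 was at background in these groups, with 1 of 6 untreated and 0 of 6 BV6-treated arrays of siIRF1 and siCtrl detected, and cannot show whether it follows.

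PLPP3, the lipid phosphatase gene, read 7.62, 7.79 and 7.75 in untreated siIRF1 cells, against 9.22, 8.72 and 8.39 in untreated siCtrl cells. The arrays did not overlap, and the difference was -1.06 ± 0.22 (limma adjusted p = 0.000987). With BV6 in both, siIRF1 arrays read 7.0, 7.04 and 6.21, against 8.65, 8.09 and 8.08 with siCtrl, a difference of -1.53 ± 0.22 (limma adjusted p = 1.29e-05). TRERF1 showed the same order, at 7.60, 7.30 and 7.51 with siIRF1 and 8.46, 8.52 and 8.01 with siCtrl in untreated cells (-0.86 ± 0.19, limma adjusted p = 0.00187), and at -1.16 ± 0.19 with BV6 in both (limma adjusted p = 7.52e-05). PLPP3 and TRERF1 were chosen partly for falls with siTNFR1 or siIRF1, which tilts their differences with BV6 in both downward. The p-values of those BV6-treated differences are no independent support. SNTB1 was lower with siIRF1 by less, by -0.71 ± 0.17 in untreated cells (limma adjusted p = 0.0042) and -0.53 ± 0.17 with BV6 (limma adjusted p = 0.0285). That last call was lost without BV6 replicate 1 or 2 of siCtrl or BV6 replicate 2 or 3 of siIRF1 (limma adjusted p 0.0615 to 0.123).

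PGCKA1, named for the GCKIII kinases, was highest in untreated siCtrl cells. It read 6.01, 5.99 and 6.62 in untreated siRELA cells and 6.21, 6.49 and 6.32 in untreated siIRF1 cells, against 7.59, 7.33 and 7.39 in untreated siCtrl cells. PGCKA1 was chosen partly for its fall from these siCtrl arrays, which tilts the differences below downward, and their p-values are no independent support. None of the siRELA arrays was detected, so it was at least 2.34-fold lower with siRELA (limma adjusted p = 7.51e-06), and with siIRF1 it was lower by -1.10 ± 0.17 log2 (limma adjusted p = 3.11e-05). With siTNFR1 it read 6.51, 7.10 and 7.03, all below the siCtrl arrays, and the difference of -0.55 ± 0.17 was not called (limma adjusted p = 0.069). In BV6-treated cells no siRNA gave a called difference for PGCKA1, which was detected there on 0 of 3 siRELA, 0 of 3 siIRF1 and 1 of 3 siCtrl arrays.

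NREP was higher with every siRNA once BV6 was present. In BV6-treated cells it read 7.17, 7.21 and 6.90 with siTNFR1, 8.04, 7.95 and 8.23 with siRELA, and 7.23, 7.25 and 7.11 with siIRF1, against 5.97, 6.01 and 6.23 with siCtrl. No array of the 3 siRNAs overlapped the siCtrl ones, though NREP was chosen partly for its low siCtrl signal with BV6, which tilts these 3 differences upward, and their p-values are no independent support. The differences were 1.02 ± 0.18, 2.00 ± 0.18 and 1.12 ± 0.18 log2 for siTNFR1, siRELA and siIRF1 (limma adjusted p = 0.000767, 1.61e-08 and 5.12e-05). In untreated cells NREP read 8.25, 8.24 and 7.92 with siTNFR1 and 8.73, 8.82 and 8.15 with siRELA, against 7.79, 7.16 and 7.11 with siCtrl, differences of 0.78 ± 0.18 and 1.21 ± 0.18 (limma adjusted p = 0.0116 and 2.48e-05). With siIRF1 the untreated difference was 0.37 ± 0.18 (limma adjusted p = 0.155). The untreated siTNFR1 call was lost without replicate 1 or 2 of siTNFR1 or replicate 2 or 3 of siCtrl (limma adjusted p 0.0555 to 0.0873).

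SOX9 was called higher with siRELA in untreated cells, and NDP with siTNFR1 and siRELA in BV6-treated cells. SOX9 read 9.95, 9.79 and 9.58 in untreated siRELA cells, against 9.15, 9.55 and 9.28 in untreated siCtrl cells, a rise of 0.45 ± 0.14 (limma adjusted p = 0.0292) that was lost without replicate 1 or 2 of siRELA or replicate 1 or 3 of siCtrl (limma adjusted p 0.0722 to 0.135). NDP, which was detected on only 5 of the 24 arrays of the siRNA experiment against 15 of 16 in the time course, read 6.84, 6.61 and 6.13 in BV6-treated siTNFR1 cells, against 5.72, 5.95 and 5.68 in BV6-treated siCtrl cells. 2 of those siTNFR1 arrays and 1 of those siCtrl arrays were detected, and the difference was 0.74 ± 0.15 (limma adjusted p = 0.00267). With siRELA and BV6 it read 6.00, 6.38 and 6.24, undetected on all 3, and passed against siCtrl (limma adjusted p = 0.0456), but no fold is given for a probe at background. That call was lost without BV6 replicate 2 or 3 of siRELA or BV6 replicate 1 or 3 of siCtrl (limma adjusted p 0.104 to 0.184).

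Among BV6-treated cells the siRNAs gave 10 calls of 24 in the 8 genes. They were 3 with siTNFR1 (NREP and NDP higher, TRERF1 lower), 2 with siRELA (NREP and NDP higher) and 5 with siIRF1 (NREP higher, CTNNBIP1, PLPP3, TRERF1 and SNTB1 lower). Of all genes, 4.96% were called with siTNFR1, 19.1% with siRELA and 22.1% with siIRF1. NREP was chosen partly for its low siCtrl signal with BV6, and TRERF1 and PLPP3 partly for falls with siTNFR1 or siIRF1. Their calls are thus no independent support, and the shares are for scale only. TRERF1 was lower with siTNFR1 and BV6 by -0.68 ± 0.19 (limma adjusted p = 0.0375), and this was lost without any 1 of the 3 siTNFR1 arrays or BV6 replicate 2 or 3 of siCtrl (limma adjusted p 0.0611 to 0.22). The count was 10 with slide as a block, 6 on slide 1 alone and 5 on slide 2 alone.

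**Figure D2:**
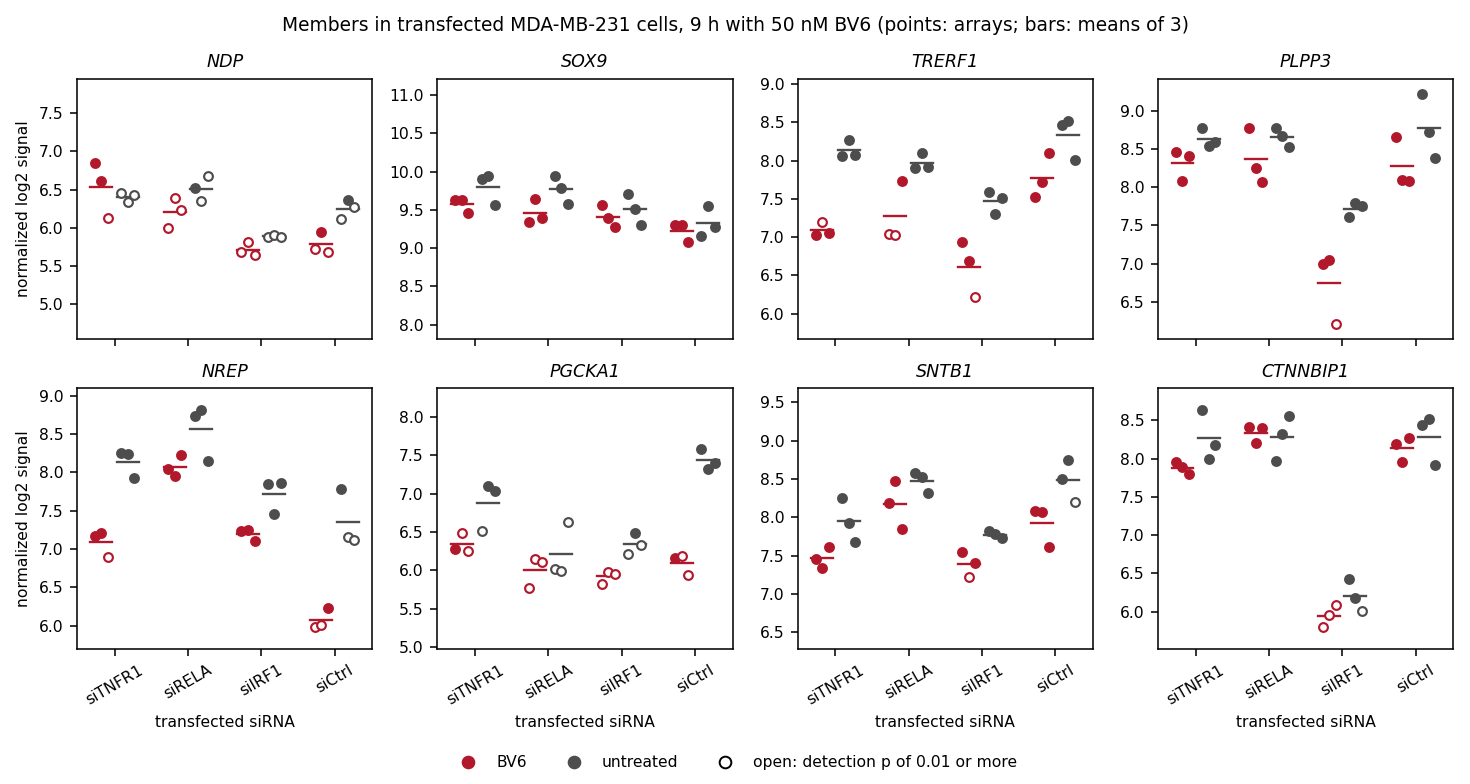
Normalized log2 signal (vertical axes, each spanning 3.4 units) of the 8 genes in MDA-MB-231 cells by siRNA, with BV6 in red left of untreated in grey; each point is an array and bars are means of 3. CTNNBIP1 sits low with siIRF1 whether or not BV6 was given, PGCKA1 is highest in untreated siCtrl cells, and NREP with BV6 is lowest with siCtrl.

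BV6 for 9 h with siCtrl lowered NREP and PGCKA1. NREP read 5.97, 6.01 and 6.23 with BV6, against 7.79, 7.16 and 7.11 in untreated siCtrl cells (-1.28 ± 0.18 log2), and PGCKA1 read 6.16, 6.19 and 5.94 with BV6, against 7.59, 7.33 and 7.39 (-1.34 ± 0.17). The arrays of both genes did not overlap, and no gene of the 9586 stood lower than PGCKA1. All 8 genes had negative values with siCtrl, with a median of -0.52 against -0.02 over all genes, and 2 were called lower, with 0.803% of all genes. SNTB1 (-0.56 ± 0.17) was called as well with the replicate block, which pairs these samples. CTNNBIP1 (-0.15 ± 0.18) and SOX9 (-0.10 ± 0.14) were the nearest to 0. The count was 3 with slide as a block, 3 on slide 1 alone and 1 on slide 2 alone.

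With siTNFR1, 2 genes were called lower after BV6, NREP and TRERF1, with 0.396% of all genes. NREP read 7.17, 7.21 and 6.90 with BV6, against 8.25, 8.24 and 7.92 in untreated siTNFR1 cells (-1.04 ± 0.18), and both groups lay above the siCtrl cells with the same treatment. TRERF1 read 7.02, 7.20 and 7.06 with BV6, against 8.06, 8.27 and 8.08 (-1.04 ± 0.19). Neither gene's arrays overlapped. PGCKA1 was lower by -0.54 ± 0.17 and was not called, and NDP, with no untreated array detected, was the 1 gene with a positive value.

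With siRELA, 0 of the 8 genes were called lower after BV6, with 0.0104% of all genes, that is 1 gene. 7 of the 8 values were negative, and limma gave 4 of them an unadjusted p under 0.05 (TRERF1, NREP, SOX9 and NDP), as it did 566 of all 9586 genes. TRERF1 was the lowest, at 7.05, 7.03 and 7.74 with BV6, against 7.91, 8.10 and 7.91 in untreated siRELA cells (-0.70 ± 0.19). NREP read 8.04, 7.95 and 8.23 with BV6, against 8.73, 8.82 and 8.15, so its arrays overlapped (-0.49 ± 0.18). PGCKA1 was undetected on all 6 of these arrays.

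With siIRF1, PLPP3 and TRERF1 were called lower after BV6, with 0.282% of all genes. PLPP3 read 7.0, 7.04 and 6.21 with BV6, against 7.62, 7.79 and 7.75 in untreated siIRF1 cells (-0.97 ± 0.22), and TRERF1 6.94, 6.69 and 6.22, against 7.60, 7.30 and 7.51 (-0.85 ± 0.19). In both genes BV6 replicate 3 was the lowest array and the groups did not overlap. Either call was lost without any 1 of the 3 untreated siIRF1 arrays or without BV6 replicate 3, and that of TRERF1 also without BV6 replicate 2. Both calls were also lost on the authors' deposited log2 matrix, where the changes were -0.49 for TRERF1 and -0.58 for PLPP3. NREP (-0.53 ± 0.18) and PGCKA1 (mean signal 1.34-fold lower, with 1 of 3 untreated and no BV6 array detected) were not called. Over the 3 siRNAs 4 of 24 values were called lower, with 4 also with slide as a block and 1 on slide 1 or slide 2 alone.

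Whether the response itself differed with an siRNA was tested as an interaction, the BV6 change with the siRNA minus that with siCtrl. None of the 24 differences passed, against 0.0104% of all genes with siTNFR1, 0.0417% with siRELA and 0.177% with siIRF1. At an unadjusted p under 0.05, 6 of the 24 passed in limma (PGCKA1 with each siRNA, NREP with siRELA and siIRF1, NDP with siTNFR1), beside 608, 503 and 435 of all genes with siTNFR1, siRELA and siIRF1. These data thus do not show that a fall of any of the 8 genes needs TNFR1, RELA or IRF1, nor that it does not. The choice of members bears on the signs: PGCKA1 and NREP were top falls with siCtrl, which tilts their differences upward, and TRERF1 and PLPP3 were top falls with siTNFR1 or siIRF1, which tilts theirs downward.

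PGCKA1 came nearest to passing. Its response differed by 1.14 ± 0.24 log2 with siRELA (limma adjusted p = 0.0701), 0.92 ± 0.24 with siIRF1 (adjusted p = 0.233) and 0.80 ± 0.24 with siTNFR1 (adjusted p = 0.463). The siRELA value passed with slide as a block (adjusted p = 0.0415) and without untreated siRELA replicate 3 (1.35, adjusted p = 0.00608), the one untreated siRELA array at 6.62. PGCKA1 was undetected with siRELA before and after BV6 and with siIRF1 after it, where the array cannot show a further fall, so these sizes rest partly on signals at background. NREP differed by 0.79 ± 0.25 with siRELA, 0.75 ± 0.25 with siIRF1 and 0.24 ± 0.25 with siTNFR1 (limma adjusted p 0.752 to 0.919). The differences of TRERF1 were -0.49 ± 0.27, -0.15 ± 0.27 and -0.30 ± 0.27 with siTNFR1, siRELA and siIRF1, and that of PLPP3 with siIRF1 was -0.47 ± 0.31 (limma adjusted p 0.808 to 0.999).

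**Figure D3:**
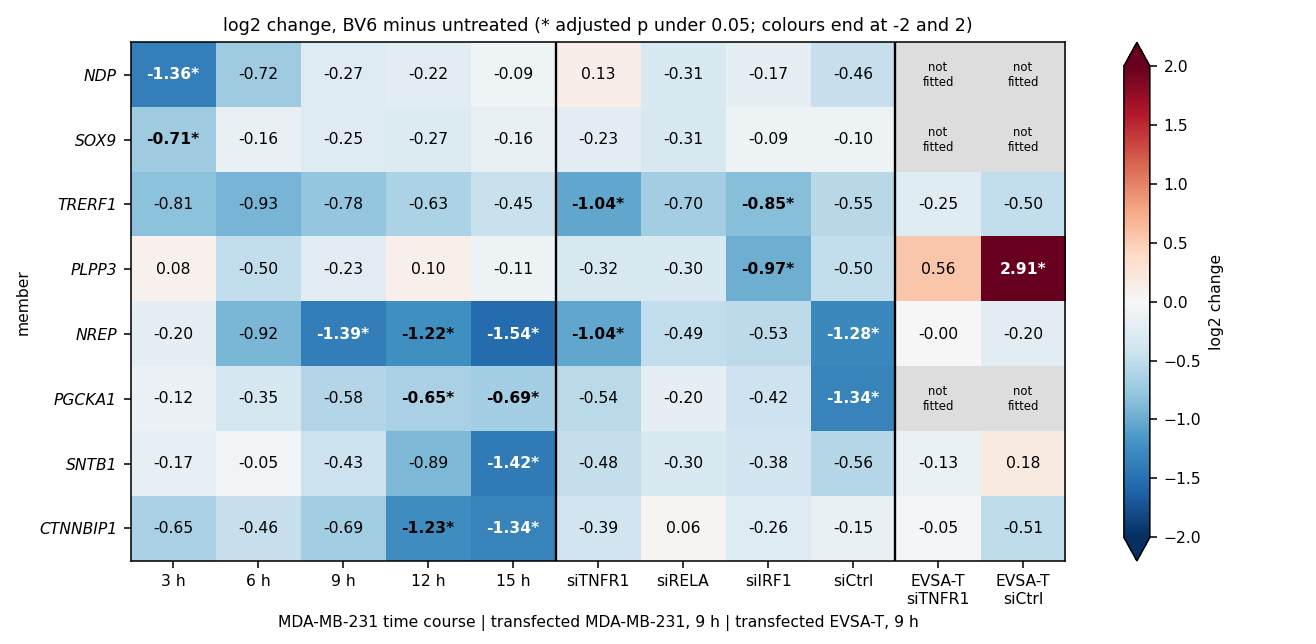
Log2 change, BV6 minus untreated, of the 8 genes (down) in each BV6 comparison (across), from blue for lower to red for higher; bold values with a star had an adjusted p under 0.05, and grey cells were not fitted. The early changes of NDP and SOX9, the late ones of CTNNBIP1 and SNTB1, and the rise of PLPP3 in EVSA-T to 2.91 stand out.

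In EVSA-T cells none of the 5 genes that could be fitted was called lower after BV6, and PLPP3 rose. It read 9.65 and 9.45 with 5 nM BV6, against 6.63 and 6.65 in untreated siCtrl cells. Neither untreated array was detected, so the rise is at least 7.50-fold (limma adjusted p = 2.06e-05), with 11.4% of all genes called in either direction. With siTNFR1 the arrays read 7.0 and 7.05 with BV6, against 6.05 and 6.88 in untreated siTNFR1 cells, and the difference of 0.56 ± 0.24 was not called (limma adjusted p = 1). All 4 of these lay more than 2 log2 units below the siCtrl cells with BV6. The rise was smaller with siTNFR1 by -2.35 ± 0.35 log2 in the interaction (limma adjusted p = 0.00372), a size that rests partly on undetected untreated arrays, with 3.85% of all genes called. The only other PLPP3 probe was detected on none of the 8 EVSA-T arrays.

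The other measured members changed by less than the test could call in EVSA-T. With siCtrl NREP read 7.68 and 7.81 with BV6, against 7.78 and 8.12 in untreated cells, and TRERF1 6.32 and 6.57, both undetected, against 6.87 and 7.02. The change of NREP was -0.20 ± 0.18, the mean signal of TRERF1 was 1.41-fold lower with BV6, the change of SNTB1 was 0.18 ± 0.19 and that of CTNNBIP1 -0.51 ± 0.42 (limma adjusted p 0.134 to 0.624). CTNNBIP1 varied most between replicates, at 9.17 and 7.96 with BV6, against 9.33 and 8.81. With siTNFR1, 0 of 5 genes were called after BV6, with 0.0712% of all genes, and 1 of the 5 (PLPP3) had an unadjusted p under 0.05, as had 277 of 8422 genes. In untreated EVSA-T cells siTNFR1 changed none of the 5, with 0.0356% of all genes called, and 1 of the 5 (TRERF1, -0.55 ± 0.19) had an unadjusted p under 0.05 in limma, as had 608 of 8422 genes.

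PGCKA1, NDP and SOX9 were too dim in EVSA-T to be fitted there. PGCKA1 and NDP were detected on 0 of 8 arrays and SOX9 on 1. The SOX9 array was a BV6-treated siCtrl one: with both lines processed together, SOX9 read 6.75 and 7.46 with BV6, against 5.44 and 5.44 in untreated siCtrl EVSA-T cells. With EVSA-T processed alone its mean signal was 2.76-fold higher with BV6, with 1 of 2 arrays detected and no test. With siTNFR1 it read 5.72 and 5.42 with BV6, against 5.42 and 5.48 in untreated cells, all undetected.

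Other genes of the same lists also rose in EVSA-T with siCtrl. SGPP2, a sphingosine-1-phosphate phosphatase, rose by 4.03 ± 0.25 log2, and PLPP1 and PLPP6, relatives of PLPP3, by 1.17 ± 0.20 and 0.87 ± 0.20, while the LPA receptor gene LPAR3 fell by 1.34 ± 0.20 (limma adjusted p 3.24e-06 to 0.0198). Of the 11 measured genes of that list 3 were called higher and 1 lower, and its median was -0.11, against -0.10 over all genes. From the Wnt lists FZD9, a frizzled, rose by 2.17 ± 0.19 and BCL9L, a beta-catenin co-activator, by 1.93 ± 0.24 (limma adjusted p = 2.72e-05 and 0.000408). Of 3 SOX genes measured, SOX4 was higher (1.02 ± 0.19) and SOX18 lower (-1.58 ± 0.23, limma adjusted p = 0.0059 and 0.00108). The SGPP2, FZD9 and BCL9L rises were smaller with siTNFR1, by -3.21 ± 0.35, -1.87 ± 0.27 and -2.05 ± 0.34 in the interaction (limma adjusted p = 0.000646, 0.00304 and 0.00702).

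In cells that had no BV6, all 8 genes differed between the lines, as did 62% of all genes. NREP was higher in EVSA-T by 1.07 ± 0.18 log2 and CTNNBIP1 by 1.22 ± 0.32 (limma adjusted p = 3.85e-05 and 0.00216). SOX9, detected on no untreated EVSA-T array, was at least 13.2-fold lower there, PGCKA1 at least 3.64-fold and PLPP3 at least 3.10-fold (limma adjusted p = 3.57e-13, 1.96e-09 and 6.19e-06). PGCKA1 was chosen partly for its fall from these untreated siCtrl MDA-MB-231 arrays, which tilts its difference downward. Its p-value is no independent support. NDP was at least 1.62-fold lower, with 1 of 3 MDA-MB-231 arrays detected, and TRERF1 and SNTB1 were lower by -0.89 ± 0.18 and -0.65 ± 0.19 (limma adjusted p = 0.000245, 0.000244 and 0.0061). All EVSA-T arrays lay on a slide with none of these MDA-MB-231 arrays, so that line and slide cannot be told apart.

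The response to BV6 with siCtrl differed between the lines for 4 of the 8 genes, with 4.96% of all genes, though the doses were 5 nM in EVSA-T and 50 nM in MDA-MB-231. EVSA-T minus MDA-MB-231, the difference was 3.33 ± 0.34 log2 for PLPP3, 1.76 ± 0.26 for SOX9, 1.60 ± 0.22 for PGCKA1 and 1.03 ± 0.26 for NREP (limma adjusted p = 1.15e-06, 0.000138, 7.86e-05 and 0.0232). No untreated EVSA-T array was detected for PLPP3, SOX9 or PGCKA1, and for PGCKA1 none with BV6 either, so the sizes of these 3 differences rest partly on signals at background. PGCKA1 read 5.56 and 5.76 with BV6, against 5.40 and 5.31 in untreated EVSA-T cells, all undetected. PGCKA1 and NREP were chosen partly for their siCtrl falls in MDA-MB-231, which tilts their differences upward. Their calls and p-values are thus no independent support, and the share of all genes is for scale only. NREP lost its call on the authors' matrix (0.61, adjusted p = 0.0808), and without MDA-MB-231 BV6 replicate 1 or 2, untreated EVSA-T replicate 1 or BV6 EVSA-T replicate 2 (limma adjusted p 0.0524 to 0.14).

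**Figure D4:**
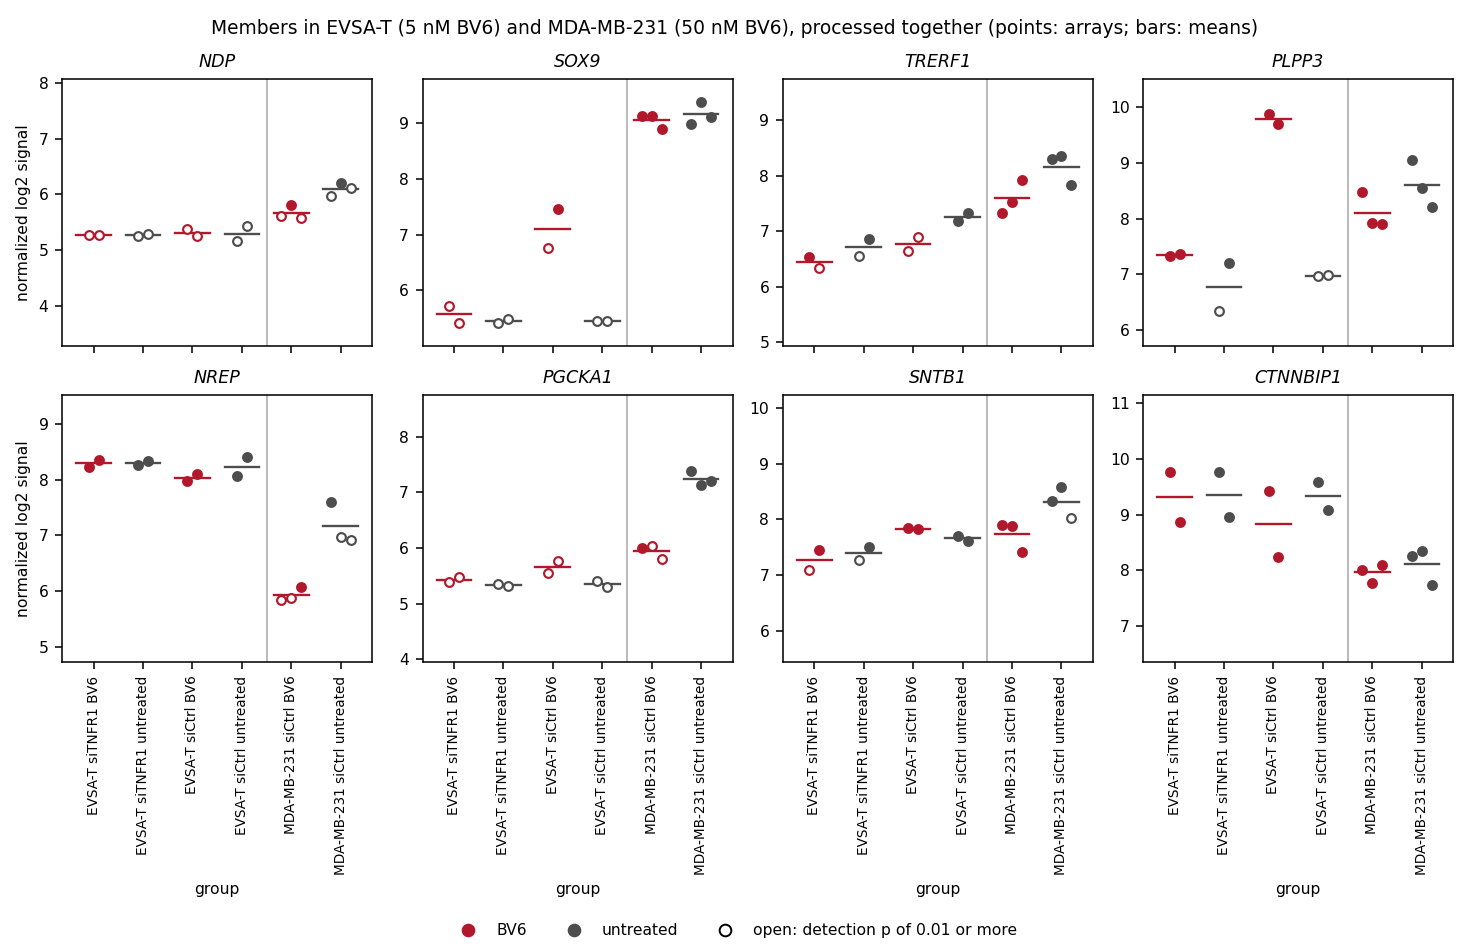
Normalized log2 signal (vertical axes, each spanning 4.8 units) of the 8 genes in EVSA-T (left of the line, 5 nM BV6) and MDA-MB-231 (right, 50 nM BV6) cells processed together, with BV6 in red left of untreated in grey; points are arrays and bars are means. PLPP3 is high in EVSA-T only with siCtrl and BV6, and SOX9 is bright in MDA-MB-231 and near background in most EVSA-T groups.

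Genes with the most similar pattern were found by the mean of 2 Pearson correlations, over the 16 arrays of the time course and the 24 of the siRNA experiment, among 9072 genes measured in both. The points share BV6, siRNA and slide, so these are descriptions. CTNNBIP1 had the closest partners, STRADB, a pseudokinase gene, at a mean r of 0.918 and LOXL4, a lysyl oxidase, at 0.913. NREP was followed by ZNF362 (0.858) and TRIM2 (0.842), SNTB1 by BMPR2, a BMP receptor (0.823), and TWSG1, a secreted BMP binder (0.804). The others were PLPP3 with FBXO33 (0.796) and XYLT2 (0.739), TRERF1 with MID1 (0.796) and CARD10 (0.788), and PGCKA1 with SERTAD4 (0.769) and OSBPL9 (0.764). NDP (SSH2 at 0.705, IRF2BP2 at 0.691) and SOX9 (MAPK1IP1L at 0.694, SOX13 at 0.649) had the least similar ones. Among the members themselves, NREP and PGCKA1 varied together over the time course (r = 0.81) but not over the siRNA arrays (r = 0.07), while CTNNBIP1 and PLPP3 did the reverse (0.11 and 0.85).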

How the data were processed

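RNA of 48 samples was measured on Illumina HumanHT-12 arrays. The values are the authors' deposited non-normalized table, whose signals are on the log2 scale (5.47 to 14.9), with a detection p-value per probe that the authors deposited in steps of 1 in 770. No source used here names the software behind them. The authors' deposited log2 matrix of the same arrays, whose scale and centring follow quantile normalization when set against the table, served as an alternative. Signals were put back on the linear scale and passed through neqc of limma 3.58.1 in R 4.3.3 (offset 16), separately for the siRNA experiment, the time course and EVSA-T, and jointly for the comparison of the lines. Of 48107 probes, 3 had missing values, 30112 have 1 gene symbol in the platform annotation, 8 several and 17984 none; 27 symbols were not in the RefSeq gene table. A probe was fitted where the number of arrays with a detection p under 0.01 reached the size of the smallest group, and each gene was read from its probe of highest mean. Of the 12 probes of the 8 genes, 4 stood for their gene nowhere, 3 of them under the filter in every experiment. limma fitted 1 coefficient per group over all genes, with Benjamini-Hochberg adjustment and a threshold of 0.05. The number of arrays limits the precision.

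Folds of at least a given size set the brighter group's mean against the dimmer group's, each dim array at the higher of its own value and the lowest signal of a detected probe. They carry no error, and most equal the plain fold of the mean signals. The words at least refer to the undetected group, whose transcript may lie lower still. They do not cover sampling error, so these folds are estimates and not guaranteed minima. Where a comparison was not called or not fitted, the same fold is given as one of mean signals and sets no minimum. The genes named are the 8 members, list genes past the threshold and the 2 genes most correlated with each member. The members, lists and tests were chosen with earlier results of these data known. The labels do not say that replicates are separate cultures, so p-values measure only the spread of these samples, possibly a technical one.

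Among comparisons with more than 2 pairs, same-numbered samples deviated together (correlations over 0.1 in every pair) in several. These were BV6 against untreated cells with siCtrl and siIRF1, and BV6-treated siRELA or siIRF1 against siCtrl cells. The others were 6 to 15 h of the time course and the EVSA-T interaction. Comparisons with 2 pairs are not listed. Some of those passed 0.1, as BV6 in EVSA-T with siCtrl (0.34) and siTNFR1 (0.38). Others did not, as 3 h of BV6 against untreated 0 h cells (0.05). The replicate numbers come from the sample titles. Alternatives were quantile normalization, the authors' matrix, other detection filters, every probe, blocks for replicate or slide, single slides, other untreated groups and leaving out each array. The fits were tested on simulated data. A gene's chance of a call on a filter that uses detection is lower where it is dim, and PGCKA1, NDP and SOX9 were left out of the EVSA-T fit for this reason.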

Additional observations from a re-analysis of the deposited data

Results flagged for a closer look

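PLPP3 is flagged because its response to BV6 in EVSA-T differed between siTNFR1 and siCtrl cells, by -2.35 log2 (limma adjusted p = 0.00372). Responses with siCtrl differed between EVSA-T at 5 nM and MDA-MB-231 at 50 nM for PLPP3 by 3.33 log2 (limma adjusted p = 1.15e-06), SOX9 by 1.76 (adjusted p = 0.000138), PGCKA1 by 1.60 (adjusted p = 7.86e-05) and NREP by 1.03 (adjusted p = 0.0232). Cell line, dose and slide cannot be told apart in these 4. PGCKA1 and NREP were chosen partly for their falls with siCtrl in MDA-MB-231, which tilts their differences upward. The p-values of PGCKA1 and NREP are thus no independent support. No untreated siCtrl EVSA-T array was detected for PLPP3, SOX9 or PGCKA1, so the sizes of their differences rest partly on signals at background.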

How the results depend on the processing

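Of the 8 genes' 40 time-course values, 10 were called lower. The count was 3 on slide 3 alone, 12 with quantile normalization or the authors' matrix, 15 with the replicate block and 5 of 32 against untreated cells of the nearest hour. With siCtrl the count of 2 was 1 on slide 2 alone. Over the other siRNAs the count of 4 was 2 with quantile normalization, 2 with the authors' matrix, 2 without a detection filter, and 1 on slide 1 or slide 2 alone. The 9 calls of the siRNAs in untreated cells were 2 on slide 2 alone and 12 with the replicate block, and the 10 in BV6-treated cells, whose alternatives were chosen after seeing the data, were 6 on slide 1 alone and 5 on slide 2 alone. In EVSA-T 2 of 15 values were called, against 4 of 24 when processed with MDA-MB-231, and 12 of 16 between the lines, 11 to 12 elsewhere. Leaving out 1 array gave 7 to 12, 2 to 2, 2 to 5 (2 without any 1 untreated siIRF1 array or BV6 siIRF1 replicate 3), 7 to 10 and 8 to 10 for these counts in MDA-MB-231, 2 to 2 in EVSA-T and 11 to 12 between the lines. Untreated time and siTNFR1 in untreated EVSA-T gave 0 in every alternative run. The cause of these moves was not tested, except that single slides hold fewer arrays.

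None of the 24 interactions was called, against 1 with the replicate block (PGCKA1 with siRELA, adjusted p = 0.0444), 1 with the slide block and 0 to 1 without 1 array. Their same-numbered arrays did not deviate together in every pair. In untreated siTNFR1 cells the replicate block gave PGCKA1, SOX9 and SNTB1 adjusted p-values of 0.0402, 0.018 and 0.0389. Signs turned, none called, on slide 2 alone for NREP (-0.15) and PLPP3 (-0.0188) with siTNFR1 and for SOX9 (0.0150), CTNNBIP1 (-0.51) and PLPP3 (-0.16) with siRELA, and on slide 1 alone for SNTB1 with siTNFR1 (-0.24) and TRERF1 (0.21) and SOX9 (-0.10) with siIRF1. Without 1 array they turned for SNTB1 (-0.0725 to 0.23) and PLPP3 (-0.0450 to 0.37) with siTNFR1, TRERF1 (-0.38 to 0.0103) and PLPP3 (-0.0226 to 0.40) with siRELA, and SOX9 (-0.11 to 0.11) and CTNNBIP1 (-0.22 to 0.0765) with siIRF1.

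With the replicate block NREP (adjusted p = 0.0253), TRERF1 (0.0339) and NDP (0.00806) were called at 6 h, PGCKA1 at 9 h (0.0362), SNTB1 at 12 h (0.00408) and SNTB1 with siCtrl (0.0335). No slide block was run between the lines or within EVSA-T, whose arrays share 1 slide, and slide 4 alone has no untreated time-course arrays. Undetected probes limit NDP and PGCKA1 with siRNA, and PGCKA1, NDP and SOX9 in EVSA-T.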
